A study of Sus scrofa with 16 samples.

Results

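The mitochondrial ribosome and protein import genes described here are the pig genes whose platform symbol starts with MRPL, MRPS, TOMM or TIMM followed by a digit. A probe set is a group of short probes for 1 transcript, and 99 of the 23935 tested carried such a symbol. They belong to 76 of the 6765 genes with a single symbol, and each gene was read on its brightest probe set. The 76 genes comprised 36 MRPL genes, 22 MRPS genes, 7 TOMM genes and 11 TIMM genes. Another 24 genes with such symbols in the RefSeq pig table, among them TOMM40, TOMM6 and TIMM17A, were not analysed here.

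RNA of the left ventricle of 16 Yorkshire x Landrace pigs aged 2 to 3 months was measured, with 1 array per animal. The exercised group held 8 animals that were sampled 4 to 5 weeks after an exercise programme began, and the sedentary group held 8. Each group had 4 females and 4 castrated males, and no transgene, drug or surgery is named for either.

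Mitochondria keep a small genome of their own, and a dedicated ribosome in the matrix translates its messages, which code for core subunits of the respiratory chain. MRPL genes code for proteins of the large subunit of that ribosome. MRPS genes code mostly for proteins of the small subunit, and all these proteins are made from nuclear genes in the cytosol. They reach the matrix, like almost every mitochondrial protein, through the TOM complex of the outer membrane and then a TIM complex of the inner membrane. Heart muscle is packed with mitochondria, and both systems serve the supply of respiratory enzymes to it.

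Values were log2 signals, on which a difference of 1 is a doubling. Signals on all arrays ran from 2.87 to 14.86 with array medians from 6.236 to 6.242, and the correlation of an array with the mean of its 15 fellows was 0.988 to 0.994. Poly-A control transcripts of bacterial origin, added to the RNA ahead of labelling, had a mean signal of at least 7.67 on 11 arrays and of at most 6.70 on the other 5. The labels do not say why. The 5 arrays were exercised 7 and 8 and sedentary 6, 7 and 8, of which 4 were from castrated males and 1 was from a sedentary female, so no exercised female was among them. For each named gene that passed on its brightest probe set when exercised and sedentary animals were compared, the difference within these array sets is given below. It is a plain difference of group means without a term for sex, and sex was not balanced within either set. It rests on 6 exercised and 5 sedentary arrays of higher control signal, and on 2 and 3 of the others. Of 10 ventricular muscle markers 8 were measured, with a mean level of 14.11 to 14.27 on exercised and 14.11 to 14.23 on sedentary arrays, and 0 passed the test for training.

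Of the 76 genes, 73 had a mean signal above the 60th percentile of all tested probe sets, which was 6.88. The median level was 9.26. The highest signal of each class was that of TIMM8B at 12.01, TOMM7 at 11.83, MRPL51 at 10.86 and MRPS15 at 10.57. The lowest was that of MRPS23 at 5.16, TOMM34 at 5.99, MRPL24 at 6.41 and TIMM22 at 8.09. Signals of different probe sets depend on their probes and are not transcript amounts to be compared between genes. In whole tissue, fewer cells of a type and less RNA per cell cannot be told apart.

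The main comparison asked which genes of the group differed between exercised and sedentary hearts. Of the 76 genes, 5 passed an adjusted p of 0.05, or 6.58%, against 13.4% of all tested probe sets, 10.0% of all genes on their brightest probe set and 4.69% of probe sets above the 60th percentile of level. The 4 genes that rose, 5.26% against 6.48% of all probe sets, were MRPS14, MRPL58, TOMM22 and TIMM22. TOMM34 alone fell, 1.32% against 6.88%. Each of the 4 that rose was thus the only one of its subunit or complex to pass, and 71 genes did not pass. Of the 73 genes above the 60th percentile of level 4 passed, or 5.48%. The share of the group that passed lay below that of all genes and close to that of bright probe sets. At an unadjusted p under 0.05 stood 9 of the 76, or 11.8%, against 27.0% of all probe sets, dim ones included. That share was not taken for bright probe sets alone.

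**Figure D1:**
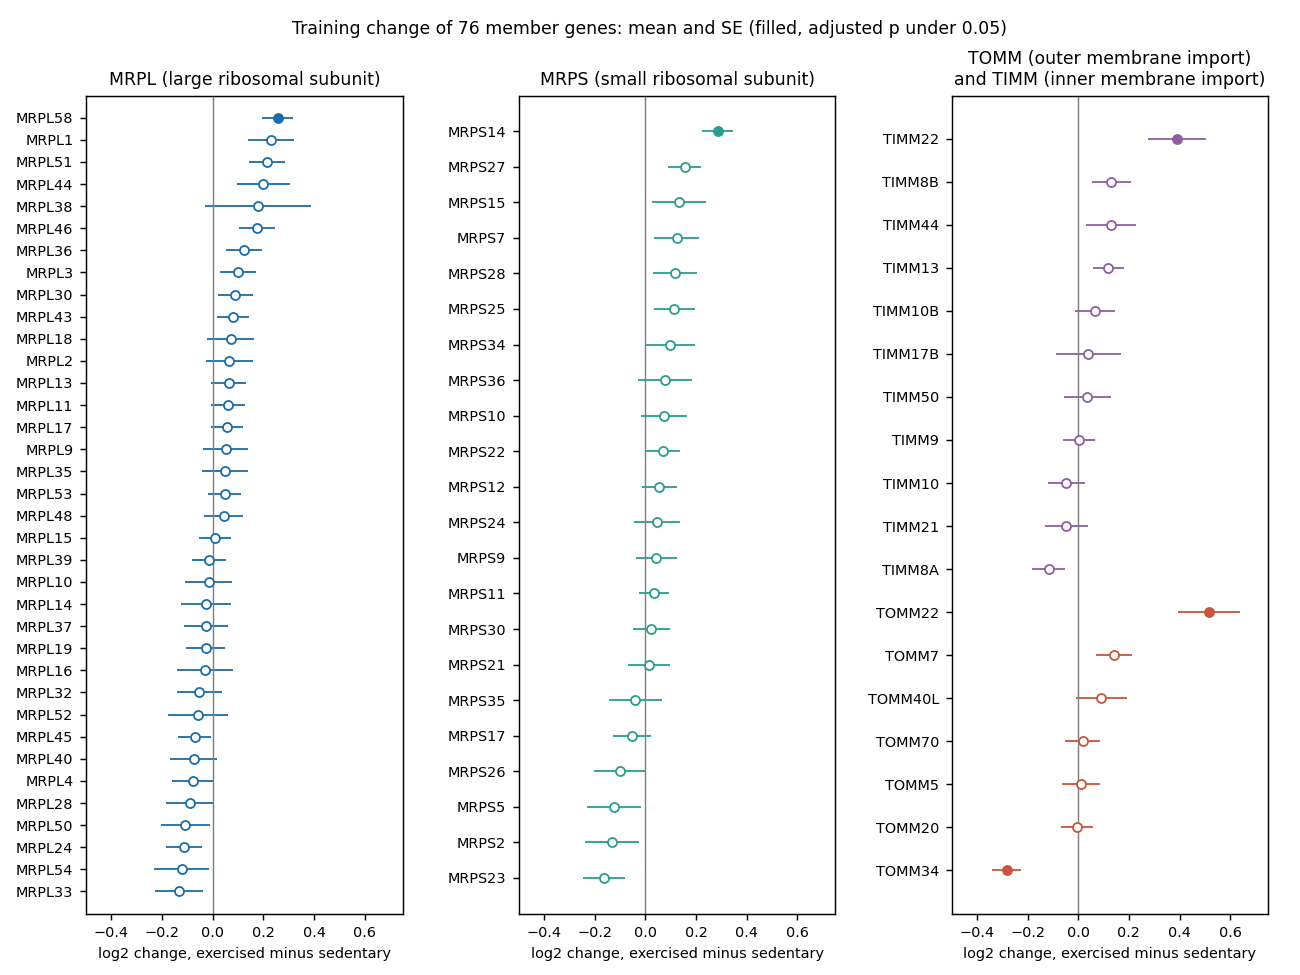
Difference in log2 signal, exercised minus sedentary, for the 76 genes, by class, with 8 animals in each group. Points are the estimates averaged over the sexes, lines span 1 standard error to each side, and filled points passed an adjusted p of 0.05: MRPL58, MRPS14, TIMM22 and TOMM22 to the right of 0 and TOMM34 to the left.

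MRPS14 codes for a protein in the head of the small ribosomal subunit (Entrez gene 100739774). On exercised arrays its lowest, median and highest log2 signals were 9.21, 9.41 and 9.64, and on sedentary arrays 9.005, 9.14 and 9.21. All sedentary arrays lay in a narrow band, and 7 of 8 exercised arrays were above its top, the exception being exercised 5. The means were 9.41 ± 0.13 (SD, n = 8) and 9.13 ± 0.06, and the difference was 0.28 (SE 0.0614, adjusted p = 0.00655), or 1.22-fold. It was 0.31 within the arrays of higher control signal and 0.21 within the others.

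MRPL58 (Entrez gene 100512432), also known as ICT1, is a protein of the large subunit that can release the nascent chain from stalled ribosomes. On exercised arrays its log2 signal ran from 8.43 to 8.73 with a median of 8.52, and on sedentary arrays from 8.14 to 8.37 with a median of 8.31. Every exercised array was above every sedentary array. It was the only one of the 76 genes whose groups did not overlap, or 1.32%, against 3.12% of all tested probe sets and 2.23% of all genes. The means were 8.54 ± 0.10 and 8.28 ± 0.09 (SD, n = 8), which differed by 0.26 (SE 0.0606, adjusted p = 0.0114), or 1.19-fold. The difference was 0.30 within the arrays of higher control signal and 0.14 within the others.

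TOMM22 (Entrez gene 100520786) is the central receptor of the TOM complex, which takes over precursor proteins from the peripheral receptors TOMM20 and TOMM70 and hands them to the channel. Its log2 signal had a lowest, median and highest value of 9.93, 10.17 and 10.31 on exercised arrays and of 9.22, 9.55 and 10.16 on sedentary arrays. The exercised animals were close together and the sedentary animals spread widely, with sedentary 8 at the level of the exercised group. All 8 exercised arrays were above the sedentary mean and 5 were above the highest sedentary array. The difference of 0.52 (SE 0.121, adjusted p = 0.0109), or 1.43-fold, was the largest of the 76, between means of 10.15 ± 0.13 and 9.63 ± 0.33 (SD, n = 8). It was 0.56 within the arrays of higher control signal and 0.48 within the others.

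TIMM22 (Entrez gene 100621364) forms the channel of the inner membrane translocase that inserts metabolite carriers such as the ADP/ATP carrier. Its log2 signal ran from 7.93 to 8.56 with a median of 8.31 on exercised arrays, and from 7.51 to 8.22 with a median of 7.91 on sedentary arrays. The groups overlapped, with 5 of 8 exercised arrays above the highest sedentary array. The difference was 0.39 (SE 0.114, adjusted p = 0.0343), between means of 8.28 ± 0.22 and 7.90 ± 0.24 (SD, n = 8). It was 0.53 within the arrays of higher control signal and 0.14 within the others. With each array left out in turn the call was lost in 9 of 16 cases, with an adjusted p of up to 0.0730. It was lost without exercised 1, 3, 4, 6 or 8 or without sedentary 1, 2, 3 or 4.

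TOMM34 (Entrez gene 100157194) carries a TOM name but is a co-chaperone that binds Hsp70 and Hsp90, found largely in the cytosol. Its log2 signal was low, at the 46.1 percentile of all probe sets, and ran from 5.75 to 5.97 with a median of 5.85 on exercised arrays. On sedentary arrays it ran from 5.95 to 6.34 with a median of 6.14. All 8 exercised arrays were below the sedentary mean and 7 were below the lowest sedentary array. The means were 5.85 ± 0.07 and 6.13 ± 0.12 (SD, n = 8), and the gene fell by 0.28 (SE 0.0577, adjusted p = 0.00468). The difference of the means was -0.23 within the arrays of higher control signal and -0.37 within the others. A fit to the arrays of higher control signal alone gave -0.24 with an adjusted p of 0.0604.

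The calls of the 4 genes that rose did not hold when the fit and the adjustment used only probe sets above the 60th percentile of level. The adjusted p was then 0.0556 for MRPS14, 0.0684 for TOMM22, 0.0802 for MRPL58 and 0.135 for TIMM22, and TOMM34 was too dim to be tested. Over probe sets above the 40th percentile TIMM22 was also lost, at 0.0706.

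**Figure D2:**
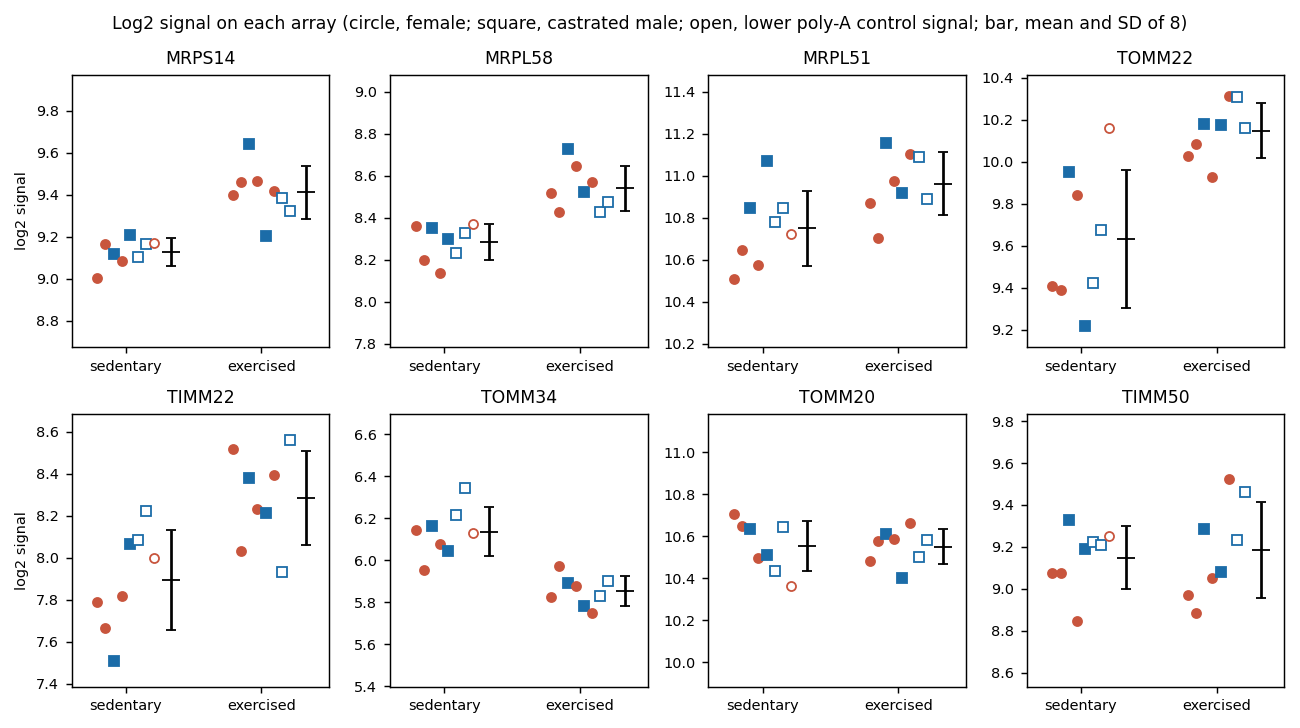
Log2 signal of 8 genes on each of the 16 arrays, with circles for females, squares for castrated males, open symbols for arrays of lower poly-A control signal, and a bar for the mean and SD of the 8 arrays of a group. MRPS14, MRPL58, TOMM22 and TIMM22 rose and TOMM34 fell, whereas MRPL51, TOMM20 and TIMM50 did not pass the test. The axis of each panel has its own range, which does not start at 0.

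Among the receptors and channel parts of the TOM complex, TOMM22 was the 1 of 5 that passed. The others were TOMM20, TOMM70, TOMM7 and TOMM5, of which TOMM5 differed by 0.01. TOMM20, the receptor for cleavable presequences, had a signal of 10.55 ± 0.08 on exercised and 10.55 ± 0.12 on sedentary arrays (SD, n = 8). TOMM70, the receptor for carrier precursors, differed by 0.02 (adjusted p = 0.913), and the groups overlapped, with 2 of 8 exercised arrays above the highest sedentary array. TOMM7, a small subunit that also holds the kinase PINK1 at the outer membrane, differed by 0.14 (SE 0.0707, adjusted p = 0.213). TOMM40L, a relative of the channel protein TOMM40 that was not counted among the 5, differed by 0.09 (adjusted p = 0.622).

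The TIM23 translocase passes presequence proteins through the inner membrane, and 0 of its 4 measured members passed. TIMM44, which tethers the import motor to the channel, differed by 0.13 (SE 0.0981, adjusted p = 0.439). TIMM50, the presequence receptor of this complex, differed by 0.04 (SE 0.0911, adjusted p = 0.849), and its highest value in either group, 9.52, stood beside a lowest value of 8.85. The other members were TIMM17B and TIMM21, and the range of the 4 differences was -0.05 for TIMM21 to 0.13 for TIMM44.

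Around the TIM22 translocase work the small TIM proteins of the intermembrane space, which chaperone hydrophobic precursors between the membranes. Of these 7 genes TIMM22 alone passed. TIMM13 differed by 0.12 (SE 0.0608, adjusted p = 0.226) and TIMM8B by 0.13 (SE 0.0773, adjusted p = 0.304). TIMM8A, a paralog of TIMM8B whose loss causes a human deafness and dystonia syndrome, differed by -0.12 (SE 0.0661, adjusted p = 0.282), so both TIMM8 genes lay on opposite sides of 0 without passing.

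Of the MRPL genes 1 of 36 passed, and of the MRPS genes 1 of 22. Proteins numbered up to MRPL36 mostly have bacterial counterparts, and 0 of these 21 genes passed, with a median difference of 0.05. The 15 with higher numbers are mostly particular to mitochondrial ribosomes, and MRPL58 alone passed there, with a median of 0.04. The nearest to the threshold was MRPL51, whose arrays ran from 10.70 to 11.15 when exercised and from 10.51 to 11.07 when sedentary. Its difference of 0.21 had an SE of 0.0712 and an adjusted p of 0.0598, which fell to 0.0322 without exercised 2 and to 0.0364 without sedentary 5. In the other 14 of 16 cases of an array left out MRPL51 did not pass, with an adjusted p of up to 0.113.

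MRPL1, part of the mobile stalk beside the exit site for used tRNA, differed by 0.23 (SE 0.0911, adjusted p = 0.112), and without sedentary 5 its adjusted p was 0.0386. In the other 15 of 16 cases of an array left out it did not pass, with an adjusted p of up to 0.207. The large subunit protein MRPL46 differed by 0.18 (SE 0.0705, adjusted p = 0.118). In the small subunit the next after MRPS14 was MRPS27, a protein with RNA-binding repeats, at 0.16 (SE 0.0653, adjusted p = 0.135). MRPS23, the dimmest of all, differed by -0.16 (SE 0.0819, adjusted p = 0.215), and MRPS25 by 0.11 (adjusted p = 0.410). Without exercised 2, an array apart from its group for MRPS25, its adjusted p was 0.0432. MRPS25 did not pass in the other 15 of 16 cases, with an adjusted p of up to 0.596. MRPS15, at 0.13 (SE 0.106, adjusted p = 0.476), and MRPL24, at -0.11 (SE 0.0715, adjusted p = 0.342), were further from the threshold.

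Among the genes that did not pass, differences ran from -0.16 for MRPS23 to 0.23 for MRPL1. For 70 of these 71 the 95% confidence interval of the difference lay wholly within 0.5 log2 of 0, and for 50 it lay within 0.3. The exception at 0.5 was MRPL38, whose interval ran from -0.27 to 0.63. Differences above 0.5 log2 were therefore outside the interval for nearly all of them, and those above 0.3 for 50 of the 71. Smaller differences lay within many of the intervals, and no limit of detection was computed. The residual spread of the 76 genes had a median SD of 0.161 log2, against 0.192 for all genes.

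Of the 76 differences 49 were positive, or 64.5%, with a median of 0.04. With each array left out the count of positive differences ran from 43 (without exercised 6) to 54 (without exercised 2), and the median from 0.02 (without sedentary 4 or exercised 3) to 0.06 (without exercised 2). Over all genes 53.1% were positive with a median of 0.01, and above the 60th percentile of level 54.0% with a median of 0.01. By class, 20 of 36 MRPL, 16 of 22 MRPS, 5 of 7 TOMM and 8 of 11 TIMM differences were positive, with medians of 0.04, 0.05, 0.02 and 0.04. Among 32 genes of respiratory complex I, whose assembly draws on both systems, 25 were positive with a median of 0.06, and 1 rose, NDUFA1, at 0.24 (SE 0.0632, adjusted p = 0.0224). With the mean of all its probe sets NDUFA1 stood at -0.10 (adjusted p = 0.252). Its adjusted p was 0.0620 over probe sets above the 40th percentile and 0.121 above the 60th, and its difference was 0.25 within the arrays of higher control signal and 0.17 within the others. Among 64 genes of the cytosolic ribosome 25 were positive with a median of -0.02, and 0 passed.

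The mean deviation of the 76 genes from their 16-array means was lowest, at -0.16, on sedentary 4 and highest, at 0.12, on exercised 3. It ran from -0.12 to 0.12 on exercised and from -0.16 to 0.10 on sedentary arrays, so the groups overlapped almost entirely. The difference between the group means was 0.04 over all arrays, 0.07 within those of higher control signal and 0.01 within the others. The 4 classes kept close together on most arrays. On sedentary 4 they ran from -0.19 for MRPS to -0.11 for TOMM, and on exercised 3 from 0.09 for TOMM to 0.14 for TIMM. The complex I genes stood at -0.20 and 0.11 on those arrays and the cytosolic ribosome genes at 0.04 and 0.03.

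**Figure D3:**
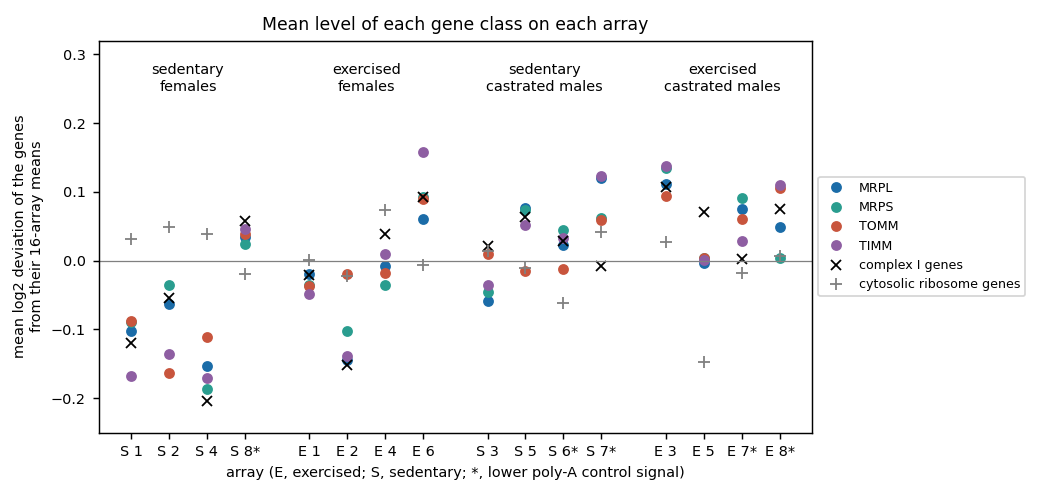
Mean log2 deviation of each class of genes from their 16-array means, for each array, with complex I and cytosolic ribosome genes for comparison. Arrays are ordered by sex and training, and an asterisk marks lower poly-A control signal. The mean of all 76 genes ran from -0.16 on sedentary 4 to 0.12 on exercised 3, and exercised and sedentary arrays overlapped.

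How far the 76 genes varied together between animals of the same sex and training was read from their residuals. The median correlation between pairs of them over the 16 arrays was 0.181, against 0.00746 for all genes above the 60th percentile of level. On the 11 arrays of higher control signal these values were 0.279 and 0.0185. Pairs on the same arrays share RNA quality and labelling, so these correlations are descriptions.

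In females 1 of the 76 genes passed for training, or 1.32%, against 3.72% of all tested probe sets, and in castrated males 2 passed, or 2.63%, against 3.77%. MRPS14 rose in females, from 9.11 ± 0.08 to 9.44 ± 0.03 (SD, n = 4), by 0.33 (SE 0.0868, adjusted p = 0.0475). In castrated males it differed by 0.24 (adjusted p = 0.147). TOMM22 rose in castrated males, from 9.57 ± 0.32 to 10.21 ± 0.07 (SD, n = 4), by 0.64 (SE 0.172, adjusted p = 0.0494), and in females it differed by 0.39 (adjusted p = 0.236). TOMM34 fell in castrated males by 0.34 (SE 0.0816, adjusted p = 0.0300), and in females its difference was -0.22 (adjusted p = 0.152). At an unadjusted p under 0.05 stood 7 of 76 genes in females, or 9.21% against 18.2% of all probe sets, and 5 in castrated males, or 6.58% against 17.3%. Within each sex, shares of bright probe sets alone were not taken. The 3 calls within 1 sex did not hold on the arrays of higher control signal alone. With each array left out, the call in females was kept only without exercised 3 or 5, both castrated males. In castrated males both calls were kept without sedentary 1, 2 or 8, and neither without exercised 3, 5, 7 or 8 or sedentary 6 or 7.

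The difference between the sexes in the training effect passed for 0 of the 76 genes and 0 of all probe sets with limma, and at an unadjusted p under 0.05 for 0 of the 76 and 621 of all, or 2.59%. The smallest p was that of MRPS21, with changes of 0.18 in females and -0.15 in castrated males (difference 0.33, SE 0.163, adjusted p = 1.00). For 54 of 76 genes, or 71.1%, the changes of both sexes had the same sign, against 69.6% of all genes. Of these 35 were positive and 19 negative. Over the 76 genes the changes in females and in castrated males correlated at 0.639 (Pearson) and 0.564 (Spearman), as a description across genes that share arrays. The same values were 0.522 and 0.525 over all genes and 0.413 and 0.421 over genes above the 60th percentile of level. For complex I genes they were 0.633 and 0.547.

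**Figure D4:**
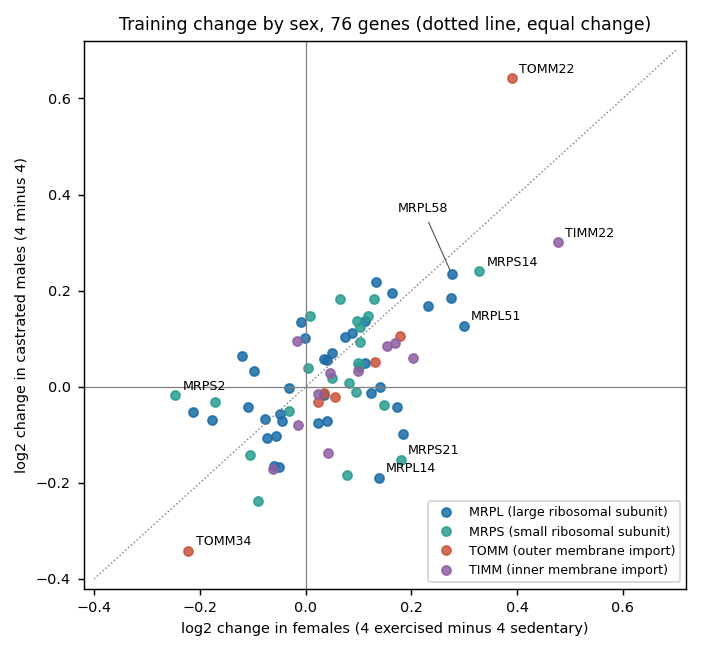
Training change of each of the 76 genes in females (horizontal) and castrated males (vertical), as log2 exercised minus sedentary with 4 animals per group. Of the 76 points 54 have the same sign in both sexes, and TOMM22, TIMM22, MRPS14 and MRPL58 lie to the upper right with TOMM34 at the lower left.

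Between females and castrated males, averaged over training, 0 of the 76 genes passed, against 22 of all tested probe sets, or 0.0919%. The signals of 56 of the 76, or 73.7%, were lower in females, against 54.1% of all genes, with a median of -0.10 against -0.01. At an unadjusted p under 0.05 stood 17 of the 76, or 22.4%, all lower in females, against 9.26% of all probe sets. With each array left out this count ran from 8 (without sedentary 4) to 25 (without exercised 6), and it was 11 or fewer without exercised 1, 2, 4 or 7 or sedentary 1, 4 or 7. With a trended and robust eBayes it was 10 and with array weights 28. The smallest p was that of TOMM7, at -0.21 (adjusted p = 0.537). Complex I genes were lower in females for 29 of 32 and cytosolic ribosome genes for 20 of 64. Of 4316 genes above the 60th percentile of level, 294 were lower and 194 higher in females at an unadjusted p under 0.05 by limma. Since 7 of 8 females but 4 of 8 castrated males had arrays of higher control signal, the array sets moved with sex. With a block for these sets 65 of 76 were lower in females, with a median of -0.07, and 5 had an unadjusted p under 0.05, or 6.58%, against 4.71% of all probe sets. On the arrays of higher control signal alone 65 of 76 were lower, with a median of -0.12.

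Some of these genes differed between the array sets. The difference was over 0.3 log2 for 9 of 76 genes, or 11.8%, against 34.3% of genes above the 60th percentile of level. The largest shift was that of MRPL38, a large subunit protein, from 8.87 to 9.76 on the arrays of higher control signal and from 9.94 to 10.19 on the others. TIMM17B, MRPL52, MRPL54, MRPS2 and MRPS15 also separated the sets completely, each with a lower signal on the arrays of higher control signal. These genes were picked for the largest shifts. The share of all genes that separate the sets completely was not taken, so no excess can be read from them.

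For 17 of the 76 genes more than 1 probe set was measured. In 6 of them all probe sets had the same sign of training difference, and in 11 they did not. Of the 23 probe sets that were not the brightest of their gene, 2 passed, both dim, a smaller share than the 13.4% of all tested probe sets. That of MRPL35, at a mean level of 3.68, rose by 0.29 (SE 0.0800, adjusted p = 0.0264), whereas the brightest, at 8.87, differed by 0.05 (adjusted p = 0.794). That of MRPL52, at 5.69, fell by 0.22 (SE 0.0647, adjusted p = 0.0327), and its brightest, at 9.25, differed by -0.06 (adjusted p = 0.805). None of the 5 genes that passed on its brightest probe set had a second one.

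The systems that these genes work with were read from lists of partner genes. The numbers listed count symbols, and some genes were listed under both an older and a current symbol. Other proteins of the mitochondrial ribosome carry different symbols, and of 7 symbols listed 4 were measured and 0 passed. The 7 include ICT1 and KGD4, other symbols of MRPL58 and MRPS36, which are already counted among the genes above. DAP3, a GTP-binding protein of the small subunit, differed by 0.24 (SE 0.0891, adjusted p = 0.0938, and 0.0353 with a block for the array sets) and CHCHD1, another of its proteins, by -0.07 (adjusted p = 0.582). Of 10 measured translation factors out of 20 listed, 1 rose, MTRF1, a release factor of the organelle, from 6.11 ± 0.22 to 6.57 ± 0.35 (SD, n = 8), by 0.46 (SE 0.146, adjusted p = 0.0482). Its difference was 0.63 within the arrays of higher control signal and 0.0048 within the others, and its call was kept only without exercised 4, 7 or 8 or sedentary 5 or 8 among the 16 cases of an array left out. Of 9 measured genes out of 21 on the list of mitochondrial aminoacyl-tRNA synthetases 0 passed. That list also holds genes of an amidotransferase, such as GATB. IARS2, for isoleucine, stood at 0.18 (adjusted p = 0.0866) and NARS2, for asparagine, at -0.16 (adjusted p = 0.117).

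Of 12 measured genes of mitochondrial ribosome assembly and transcription out of 30 listed, 1 rose and 1 fell. MTERF3, of the family of mitochondrial transcription terminators, rose from 7.91 ± 0.34 to 8.33 ± 0.10 (SD, n = 8), by 0.42 (SE 0.125, adjusted p = 0.0350), with 0.44 within the arrays of higher control signal and 0.36 within the others. ERAL1, a GTPase that chaperones the small ribosomal RNA, fell by 0.27 (SE 0.0821, adjusted p = 0.0393), with -0.17 within the arrays of higher control signal and -0.49 within the others. With each array left out, MTERF3 lost its call in 7 of 16 cases, without exercised 1, 3, 4, 6 or 7 or sedentary 2 or 4. ERAL1 kept its call only without exercised 5 or 6 or sedentary 1 or 4. With the mean of all probe sets of the gene the differences were 0.20 (adjusted p = 0.105) and -0.08 (adjusted p = 0.496). Over probe sets above the 40th percentile of level the adjusted p was 0.0706 for MTERF3, 0.0853 for ERAL1 and 0.0905 for MTRF1, and above the 60th it was 0.135 for MTERF3 and 0.156 for ERAL1. With a trended and robust eBayes that of ERAL1 was 0.0534, and on the arrays of higher control signal alone it was 0.289.

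Of 18 measured partners of the TOM and TIM complexes out of 29 listed 0 passed. ROMO1, a small inner membrane protein at the TIM23 complex, differed by 0.18 (adjusted p = 0.0994) and MTCH2, an outer membrane insertase, by 0.17 (adjusted p = 0.160). Of 4 measured mitochondrial proteases out of 9 listed 0 passed, with PARL at 0.14 (adjusted p = 0.273) and YME1L1 at 0.06 (adjusted p = 0.609). Of 6 measured transcription factors and coactivators of mitochondrial genes out of 13 listed 1 rose. This was PPRC1, a relative of PGC-1 coactivators, from 6.44 ± 0.07 to 6.83 ± 0.16 (SD, n = 8), by 0.39 (SE 0.0703, adjusted p = 0.00196), with 7 of 8 exercised arrays above the highest sedentary array. The difference was 0.46 within the arrays of higher control signal and 0.20 within the others.

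**Figure D5:**
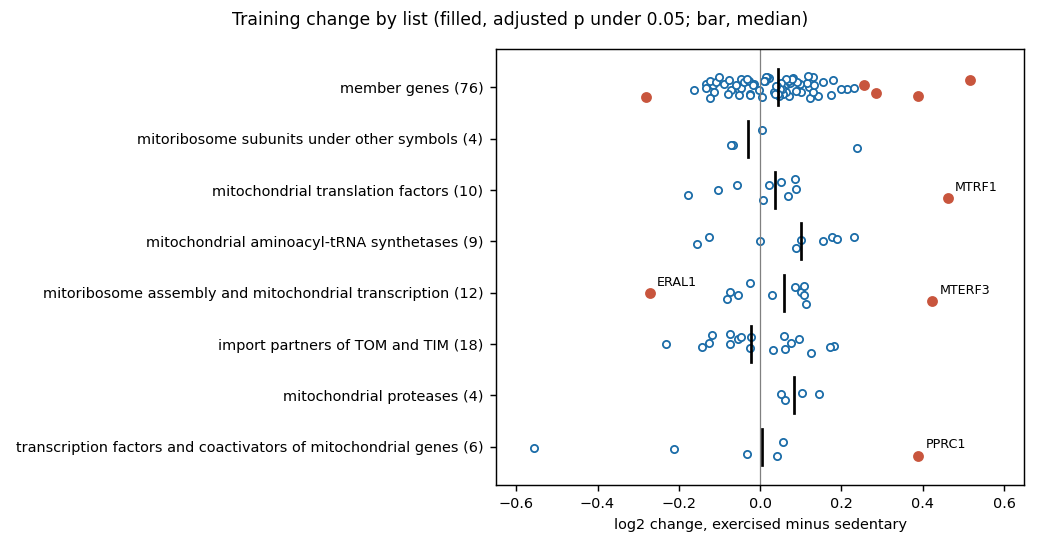
Training difference in log2 signal, exercised minus sedentary, of each gene of the 76 and of 7 lists of partner genes, with the number measured in parentheses. Filled points passed an adjusted p of 0.05 and bars are medians. Of the partner genes MTRF1, MTERF3 and PPRC1 rose and ERAL1 fell.

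Markers of other cell types were read on the same arrays. Of 6 lymphocyte markers all 6 were measured and 2 rose, CD79B by 0.26 and CD3G by 0.56, with differences of 0.28 and 0.41 within the arrays of higher control signal and of 0.23 and 0.71 within the others. Of the 6 differences 5 were positive and 1 was negative, over a range of -0.37 to 0.57. The mean level of the list ran from 5.35 to 5.94 on exercised and from 4.86 to 5.62 on sedentary arrays. Of 4 atrial muscle markers 3 were measured and NPPA fell by 0.78, with differences of -0.48 within the arrays of higher control signal and -1.37 within the others, and with a mean level of the list from 6.78 to 7.74 on exercised and from 7.18 to 8.24 on sedentary arrays. Of the measured fibroblast, endothelial, smooth muscle, macrophage, erythroid and adipocyte markers 0 passed. The part of these cell types in the results was not tested.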

How the data were processed

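Per the labels' protocols, biotin-labelled cRNA from total RNA was put on 1-colour Affymetrix porcine arrays. The authors deposited 1 value per probe set and array, read here as a log2 signal from its range. The method of summarisation and the build are not given in the sources used here. Groups and sexes came from the labels, and p-values measure the spread between animals. Of 24123 probe sets 188 controls were left out. Of the 23935 tested, 10069 carried a single symbol in the platform annotation, 198 several and 13668 none. Of those with several, 6 held a fitting symbol, for 2 more genes, and were not used. Entrez identifiers matched 75 of the 76 genes to the RefSeq table of Sscrofa11.1, which changed 0 symbols.

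In limma 3.58.1 (R 4.3.3), lmFit estimated 4 means, for exercised and sedentary animals of each sex, from the 16 arrays together, and eBayes added 3.50 prior to the 12 residual degrees of freedom. Tests were two-sided, and every adjusted p is limma's after Benjamini-Hochberg, with a threshold of 0.05. In the main fit it was taken over the 23935 probe sets. In alternatives that filtered or averaged probe sets, the fit and the adjustment used the rows that were left. The fit was tested on simulated data. The genes, the lists, the alternatives and the rule for named genes were chosen with earlier results of these data known, and the grouping by complex was made after values were seen. The rule named genes that passed, 4 per class with the smallest p, the brightest and dimmest per class, those with a dimmer probe set that passed, and well-known import receptors. Partner lists gave genes that passed or else their 2 smallest p. Alternatives were other normalizations, filters at the 40th and 60th percentiles, other eBayes settings, array weights, blocks, averaging a gene's probe sets, an adjusted p of 0.1, and leaving out each array. The figures come from matplotlib 3.10.9 (Python 3.11.15).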

Additional observations from a re-analysis of the deposited data

Results flagged for a closer look

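In 1 of the 50 sets of 8 arrays looked at, an array stood apart from the rest of its group by Dixon's test, where chance alone would set apart about 1 in 20. In the exercised group MRPS25, a small subunit protein, had a log2 signal of 9.47 on exercised 2, a female. The nearest exercised array was at 9.98 and the highest at 10.22, so the gap was 0.675 of the range, against a critical value of 0.526. Without exercised 2 the training difference of MRPS25 was 0.19 with an adjusted p of 0.0432 by limma, against 0.11 and 0.410 with all arrays. MRPS25 did not pass in the other 15 of 16 cases of an array left out.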

How the results depend on the processing

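The training count of 5 genes stayed between 4 and 6 under the alternatives run, apart from the filter at the 60th percentile of level, which left 0, and leave-one-out, which gave 4 to 7 (without exercised 2 or sedentary 5). Over all probe sets 3197 became 631 above the 40th and 77 above the 60th percentile, and 2513 to 3108 with each array left out. The median difference of the 76 genes ran from 0.02 to 0.06 with each array left out. In females the count of 1 became 0 above the 40th and 60th percentiles, with a trended and robust eBayes, on the larger poly-A array set alone and with the replicate block. It was 5 with array weights, 2 at an adjusted p of 0.1, and 0 to 1 with each array left out. In castrated males the count of 2 became 0 above both percentiles, on the larger array set, with the replicate block and with array weights, and 0 to 2 with each array left out. For the difference between the sexes in training effect and for sex it was 0 throughout. The cause of these shifts was not tested.

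With the replicate number as a block 4 of the 76 genes passed, 3 higher and 1 lower, with TIMM22 at an adjusted p of 0.0527, and 3528 of all probe sets. For sex, the replicate block gave a median of 0.01 with 35 of 76 genes lower in females and 2 at an unadjusted p under 0.05; only numbers 6 and 8 joined animals of different sex. The labels do not say whether the numbers pair animals, and not every pair reached a correlation of 0.1: same-numbered animals correlated at -0.0331 to 0.386, with 5 of 8 pairs over 0.1 and 1 of 8 closest to its own number. Arrays numbered 1 to 5 had the higher and arrays 7 and 8 the lower control signal in both groups.

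Of 1084 comparisons of 39 named genes with their main value, 21 changed sign, almost all near 0. MRPL35 was at -0.0594 on the larger array set and -0.0045 with array weights, MRPL52 at 0.0317 and 0.0225, CHCHD1 at 0.0182 on the larger set, TOMM70 at -0.0170 with weights, and NDUFA1 at -0.10 with the mean of all its probe sets (adjusted p = 0.252). With each array left out MRPL35 ran from -0.0107 to 0.0809, MRPL52 from -0.113 to 0.0167, TIMM50 from -0.0327 to 0.0737, TOMM20 from -0.0357 to 0.0216 and TOMM70 from -0.0173 to 0.0396. TOMM34, MRPS14, TOMM22 and MRPL58 passed with each of the 16 arrays left out, and TIMM22 in 7 of them. Precision is limited by how few arrays there are. For the training effects by sex, their difference and the sex difference, the fits on the larger poly-A array set alone were chosen after seeing the data.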

Other observations

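Probe sets of the same gene could disagree within this group. For MRPL33, a large subunit protein, the brightest probe set had a mean level of 10.32 and a training difference of -0.13, whereas the other, at 8.13, stood at 8.53 ± 0.66 on exercised and 7.72 ± 0.72 on sedentary arrays (SD, n = 8), a difference of 0.82 with an adjusted p of 0.104 by limma. For MRPL32 both probe sets correlated at -0.633 over the 16 arrays, and between the arrays of higher and lower control signal they shifted by -0.26 and 0.64. For MRPL46 and MRPL2 both probe sets correlated at 0.849 and 0.834. These genes were chosen after their values were seen.

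The promoter sequences of the genes were not analysed here.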
